A study of Mus musculus with 3 samples.

Results

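RNA helicases of the DEAD and DEAH box families were described in sorted blood stem and progenitor cells. The members are the genes whose symbol starts with Ddx or Dhx followed by a number, without the Y-linked Ddx3y, and 53 of the 24421 gene symbols in the deposited files met this rule (37 Ddx and 16 Dhx symbols). The cells were hematopoietic stem and progenitor cells (HSPCs) from the bone marrow of C57BL/6 mice with the genotype Cicflox/flox + tamoxifen, that is, with loxP sites around both alleles of the transcriptional repressor Capicua. They were sorted as lineage-negative, c-Kit-positive and Sca-1-positive cells. All 3 libraries, numbered by replicate, belong to this 1 control group, so no contrast between genotypes was made. The labels of these libraries name no Cre transgene and give no age, and they do not say whether the libraries came from separate mice. Differences between the libraries may therefore be technical.

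RNA helicases use ATP to part RNA strands or to strip proteins off RNA. The family takes its names from a short stretch of the protein, the DEAD or DEAH box, which binds the nucleotide together with magnesium. DEAD box members mostly open short duplexes locally, while DEAH box members move along RNA from its 3′ end. They drive the steps of the spliceosome, the assembly of ribosomes in the nucleolus, the export, translation and decay of mRNA, and the sensing of viral RNA. Dividing blood progenitors rely on ribosome assembly and splicing, and several of these genes are mutated in myeloid and lymphoid cancers.

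The box itself could be read from the coding sequence of 50 of the 53 members in GENCODE M21, the mouse annotation of the GRCm38 assembly. The codons spelled the DEAD box in 27 members and the DEAH box in 9, and in 14 members the codon before the last differed from both. No box was found in Ddx26b, Ddx60 and Dhx32. The search required a fixed pattern of the phosphate-binding loop ahead of the box, so it can miss a box. Ddx26b is listed in that annotation as Ints6l, a relative of the Integrator subunit gene Ints6. The stretches of 30 coding bases below are shown for the 9 most abundant members, for both genes of 4 related pairs described further on, and for Ddx10 and Dhx8 as further examples of the DEAD and the DEAH box. The capitals mark the 4 codons of the box, written 5′ to 3′.

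Ddx5: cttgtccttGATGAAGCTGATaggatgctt
Ddx17: cttgtgttgGATGAGGCTGACcggatgctt
Ddx3x: ctggtgttaGATGAAGCTGACcggatgtta
Ddx6: atagtgctaGATGAGGCAGATaaattgttg
Ddx10: ttagttcttGATGAGGCAGATagaatcttg
Ddx46: gttgttttaGATGAAGCAGACagaatgttt
Ddx39b: tttattttgGACGAGTGTGACaagatgctt
Ddx39: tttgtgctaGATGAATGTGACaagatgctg
Ddx21: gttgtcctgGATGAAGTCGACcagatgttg
Ddx50: gttgtgcttGATGAAGTAGATcaaatgtta
Dhx15: ataattcttGATGAGGCCCATgaaagaaca
Dhx8: attatgttgGATGAAGCACACgagaggacc
Dhx9: gttattgtgGATGAAATTCATgaaagagat
Ddx58: atgatatttGATGAGTGTCATaacactagc
Dhx58: attgtggtgGACGAGTGTCACcacacccac

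Among the 27 members with the DEAD box, the 12 bases were spelled in 12 different ways, and the most frequent spelling was shared by 5 members. In Dhx15 and Dhx8 the last codon of the box is CAT or CAC in place of GAT or GAC, and the same holds for Dhx9 and for the RNA sensor genes Ddx58 and Dhx58. Ddx39b and Ddx39 both carry TGT before the last codon, as Ddx58 and Dhx58 do, where Ddx5, Ddx17 and Ddx3x carry GCT. Ddx21 and Ddx50 carry GTC and GTA there.

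The helicase genes were expressed broadly and very unevenly. A mean level of at least 1 CPM (the count scaled to the library's total of gene counts) was reached by 52 of the 53 members, against 53.1% of all gene symbols, and at least 100 CPM by 14 of these 52, against 17.0% of all genes at 1 CPM or more. The median member lay at 57.0 CPM, beside 25.9 CPM for all 12965 genes that reached 1 CPM. Per kilobase of annotated exons the medians were closer, at 9.34 CPM per kb for the members and 6.41 CPM per kb for those genes. The members' share of gene counts was 0.629% in library 1 (0.627 to 0.632%), 0.696% in library 2 (0.693 to 0.699%) and 0.712% in library 3 (0.709 to 0.715%). The bounds are 95% Clopper-Pearson limits and cover counting error only. The share was lowest in library 1, and the 5 most abundant members held 51.2 ± 0.832% (SD, n = 3) of it.

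**Figure D1:**
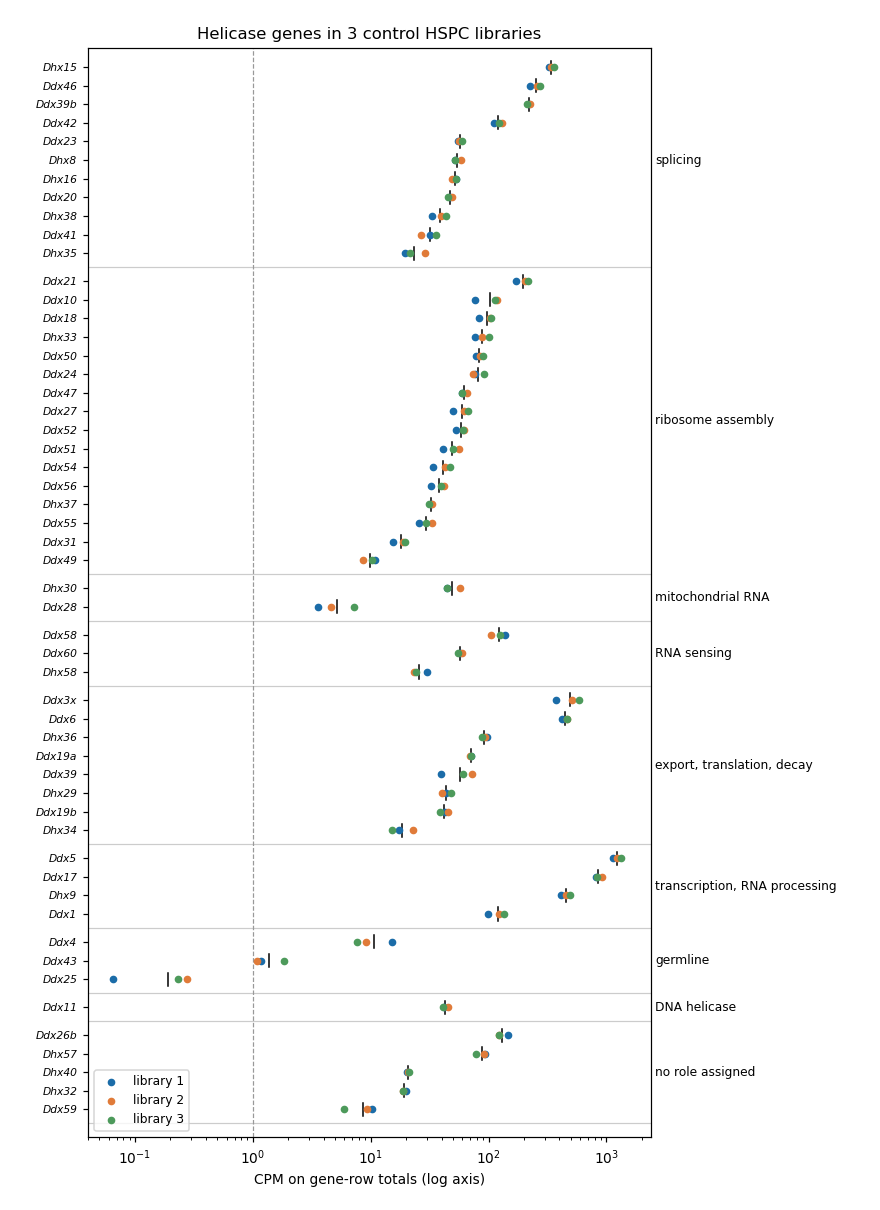
CPM on gene-row totals (log axis) of the 53 helicase genes in the 3 control libraries, ordered by role and mean level, with a black bar at the mean and a dashed line at 1 CPM. Ddx5 and Ddx17 lead the family at 1232 and 853 CPM, and Ddx25 is the 1 member below 1 CPM.

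The libraries held 25097769 to 30718562 gene counts. All 10 HSPC marker genes looked at, such as Kit (826 ± 71.0 CPM) and Cd34 (425 ± 9.06 CPM), exceeded 1 CPM, and 3 of 12 genes of lymphocytes, red cells, macrophages and stroma did, with Hba-a1, Hbb-b1 and Col3a1 at 0 counts in every library. The 10 granule and neutrophil genes all exceeded 1 CPM, and their summed level was 977, 1877 and 2998 CPM in libraries 1, 2 and 3. Most of that sum was Mpo (683, 1544 and 2403 CPM), while 5 of the 10 genes, among them Ngp (80.1, 15.4 and 34.1 CPM), were highest in library 1. The row of Rn45s, the gene of the ribosomal RNA precursor, took 11.8%, 8.20% and 7.91% of gene counts. Reads of the precursor and of mature ribosomal RNA were not separated in it. In these bulk samples, fewer cells of a type and less RNA per cell cannot be told apart.

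Transcription and general RNA processing is the role of the most abundant members. All 4 of its genes exceeded 100 CPM. Ddx5 (p68, a coregulator of transcription that also acts in microRNA processing; chr11:106780355-106789185) lay at 1133, 1227 and 1335 CPM in libraries 1, 2 and 3, rank 43 of all genes. Its close relative Ddx17 (p72; chr15:79527736-79546741) lay at 822, 912 and 824 CPM. Both were high in every library, and their ranges did not overlap. Of the 50-base stretches in Ddx5 transcripts, 14.6% also occur in other annotated genes, which makes its count somewhat uncertain.

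Dhx9 (RNA helicase A, which unwinds double-stranded RNA and RNA-DNA hybrids; chr1:153455758-153487660) lay at 415, 452 and 495 CPM. Ddx1, a subunit of the tRNA ligase complex, lay at 99.1, 123 and 135 CPM. All 4 genes of this role were lowest in library 1. Ddx17 differed little between libraries 1 and 3, and scaled by TMM, by DESeq2 size factors or to totals without Rn45s, 3 of the 4 genes were lowest in library 1.

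Export, translation and decay of mRNA came next. Ddx3x, an X-linked helicase that helps ribosomes start on structured mRNAs (chrX:13280970-13294052), lay at 375, 514 and 581 CPM, with library 1 well below the other libraries. Ddx6, which holds mRNAs silent and promotes their decapping (chr9:44604892-44640731), lay at 421, 461 and 465 CPM and varied little. Ddx3x and Ddx6 were the 2 members of this role above 100 CPM, out of 8. Dhx36, which unwinds G-quadruplexes, was at 92.4 ± 4.82 CPM, and the nuclear pore helicase gene Ddx19a at 70.6 ± 0.933 CPM. The 3 libraries of Ddx19a lay within 69.7 to 71.6 CPM, a difference that the chi-square test on counts did not call.

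Ddx39, an mRNA export helicase gene related to Ddx39b, lay at 39.6, 71.9 and 61.2 CPM, so that library 1 was well below both others. The exons of Ddx39 overlap the antisense gene Adgre5 over 17.4% of their length, and the strand setting of the counting is not known, so this count is uncertain. Dhx29, which helps the small ribosomal subunit scan structured mRNA leaders, was at 43.8 ± 3.96 CPM. The lowest members of this role were Ddx19b, the neighbour and copy of Ddx19a, at 42.3 ± 3.37 CPM, and Dhx34, a factor of nonsense-mediated decay, at 18.6 ± 4.03 CPM. Dhx34 was highest in library 2, at 23.0 CPM, against 17.5 and 15.2 CPM in libraries 1 and 3.

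The splicing helicases were all expressed, with a median range between libraries of 0.17 in log2(CPM + 0.5) against 0.36 for all genes at 1 CPM or more. All 11 exceeded 1 CPM and 4 exceeded 100 CPM, with a median of 54.5 CPM or 11.8 CPM per kb, beside 6.41 CPM per kb for genes at 1 CPM or more. Dhx15, which takes spent spliceosomes apart (chr5:52150203-52190514), lay at 325, 342 and 357 CPM. Ddx46, which loads the U2 particle onto the branch point (chr13:55635027-55681256), lay at 227, 260.0 and 275 CPM. Ddx39b, known as UAP56, which acts in early spliceosome assembly and mRNA export (chr17:35241746-35253707), lay at 222, 225 and 211 CPM. Dhx15 and Ddx46 were lowest in library 1 and highest in library 3, while Ddx39b was lowest in library 3.

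Ddx42, a partner of the U2 particle, was at 121 ± 9.62 CPM and Ddx23, which exchanges U1 for U6 at the 5′ splice site, at 57.0 ± 2.22 CPM. Of the helicases of the later steps, Dhx16 of spliceosome activation was at 51.9 ± 2.36 CPM, Dhx38 of the step before exon ligation at 38.5 ± 5.15 CPM and Dhx8 of mRNA release at 54.5 ± 3.84 CPM. Ddx20, which assembles splicing particles with the SMN protein, was at 46.9 ± 1.66 CPM. The lowest were Ddx41, a gene mutated in familial myeloid neoplasms, at 31.7 ± 4.64 CPM, and Dhx35 at 23.3 ± 5.02 CPM. Ddx41 overlaps an antisense gene over 17.4% of its exon length, so its count is uncertain.

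The partners of these helicases in the spliceosome were higher per length. All 20 listed genes exceeded 1 CPM, with a median of 89.0 CPM or 17.8 CPM per kb. They were led by Prpf8, the core scaffold, at 765 ± 31.0 CPM, Sf3b1 at 681 ± 62.4 CPM and Sf3b3 at 354 ± 41.1 CPM, and Tfip11, an activator of Dhx15, was lowest at 19.8 ± 2.93 CPM. Of the helicases with other symbols, the spliceosome gene Snrnp200 stood at 347 ± 4.66 CPM, and the translation initiation genes Eif4a1 and Eif4a2 at 656 ± 56.5 and 604 ± 41.3 CPM. In that list of 12 genes 11 exceeded 1 CPM, and the germline gene Tdrd9 was lowest at 0.354 ± 0.234 CPM.

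Helicases of ribosome assembly formed the largest group, with moderate levels. All 16 exceeded 1 CPM, 2 exceeded 100 CPM, and the median was 59.1 CPM or 9.28 CPM per kb. Ddx21, which couples the transcription and processing of ribosomal RNA (chr10:62580251-62602281), lay at 171, 203 and 217 CPM in libraries 1, 2 and 3. Ddx10, a factor of the small subunit (chr9:53098635-53248053), lay at 76.4, 118 and 113 CPM. Ddx18, a factor of the large subunit, lay at 82.4, 102 and 106 CPM, but its count is uncertain, since 55.9% of its 50-base stretches recur in other annotated genes. In all 3 genes library 1 was the lowest, and libraries 2 and 3 were closer to each other than to it.

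Dhx33, a nucleolar helicase gene also linked to RNA sensing, was at 88.4 ± 11.5 CPM and Ddx50, the relative and chromosomal neighbour of Ddx21, at 83.8 ± 5.61 CPM. The lowest were Ddx31 at 17.9 ± 2.26 CPM and Ddx49 at 9.94 ± 1.22 CPM, and Ddx49 overlaps an antisense gene over 29.8% of its exon length. The other 9 members, Ddx24, Ddx27, Ddx47, Ddx51, Ddx52, Ddx54, Ddx55, Ddx56 and Dhx37, lay between 29.5 and 80.7 CPM. Of these, Ddx54 overlaps antisense genes over 15.5% of its exon length.

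The ribosome assembly helicases were mostly low in library 1. Over all roles, 29, 10 and 13 of the 52 members were lowest in libraries 1, 2 and 3, against 44.3%, 23.6% and 32.1% of all genes, and 10, 19 and 23 were highest there, against 31.9%, 35.6% and 32.5%. Under the 3 other scalings 24 members were lowest in library 1. In log2(CPM + 0.5), the median ribosome assembly helicase lay 0.29 below the mean of the other libraries in library 1 (a difference of -0.29), and 0.11 and 0.17 above it in libraries 2 and 3. Over all genes at 1 CPM or more the same medians were -0.05, 0.05 and 0.00411. Library 1 held the lowest value of 12 of the 16 members. The count was 12 of 16 under each of the 3 other scalings, where that share of all genes was 37.3 to 39.4%.

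Ribosome assembly genes that are not helicases showed the same order. Of 20 such genes, led by Npm1 at 2547 ± 170 CPM, Ncl at 1562 ± 272 CPM and Nop56 at 543 ± 86.7 CPM, 18 were lowest in library 1, and their median difference there was -0.39. The lowest gene of the list, Bop1, was at 27.1 ± 5.46 CPM. Beside this, Rn45s was highest in library 1 and the summed granule genes were lowest there, with Mpo. The HSPC marker genes went the other way, with summed levels of 3492, 3190 and 2974 CPM in libraries 1, 2 and 3. The part of these differences in the result was not tested, and library 1 is a single library.

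**Figure D2:**
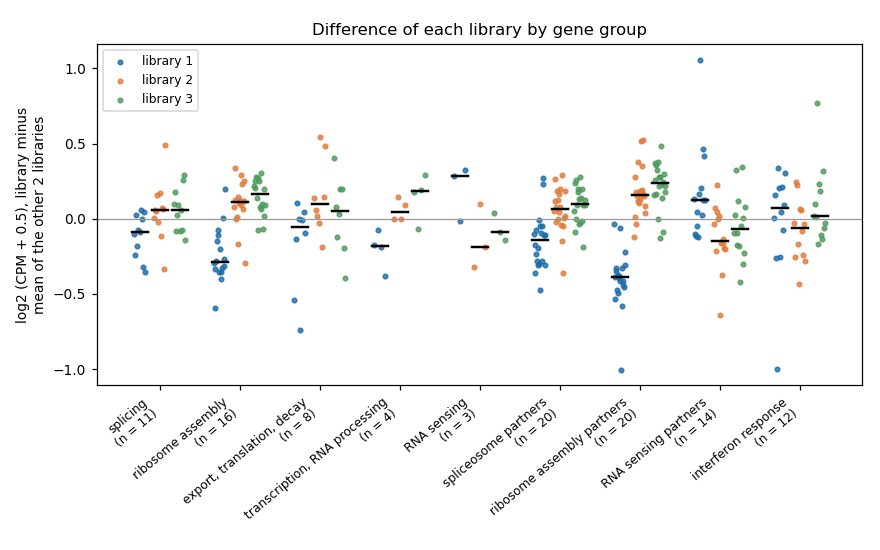
Difference of each library from the mean of the other 2 in log2 (CPM + 0.5) for helicases of 5 roles and for partner lists; each point is a gene with at least 1 CPM on average and black bars are medians. Within the ribosome assembly helicases and their partners, library 1 has the lowest median of the 3 libraries (-0.29 and -0.39), and within the RNA sensing helicases it has the highest (0.28).

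RNA sensing helicases were present at moderate levels in these cells. Ddx58, which encodes the cytosolic sensor RIG-I of viral RNA ends (chr4:40203773-40239828), lay at 139, 105 and 124 CPM in libraries 1, 2 and 3, rank 1753 of all genes. Dhx58, which encodes its regulator LGP2 (chr11:100694884-100704271), lay at 30.0, 23.5 and 24.1 CPM. Ddx60, an antiviral factor, lay at 56.9, 59.8 and 54.9 CPM. Ddx58 and Dhx58 were both highest in library 1 and lowest in library 2, while Ddx60 changed little. Per kb of exons the 3 genes had a median of 7.90 CPM, so this role lay close to the 6.41 CPM per kb of genes at 1 CPM or more.

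The rest of the sensing pathway was expressed as well. All 14 listed partner genes exceeded 1 CPM, with a median of 49.6 CPM, led by the RIG-I ubiquitin ligase gene Trim25 at 273 ± 11.2 CPM, the kinase genes Eif2ak2 (PKR) at 169 ± 14.7 CPM and Tbk1 at 113 ± 10.96 CPM. The RNA receptor gene Tlr3 was lowest at 6.87 ± 1.45 CPM. Ifih1, which encodes MDA5, the relative of RIG-I that senses long double-stranded RNA, lay at 86.0, 69.6 and 72.2 CPM, again highest in library 1. Of the 14 partners 9, 2 and 3 were highest in libraries 1, 2 and 3, against 31.9%, 35.6% and 32.5% of all genes. The 12 interferon response genes all exceeded 1 CPM, among them Oasl2 at 157 ± 26.0 CPM and Irf9 at 78.8 ± 10.8 CPM. Ifit3 was lowest at 3.12 ± 1.38 CPM. Beside the same shares of all genes, 5, 2 and 5 of these 12 were highest in libraries 1, 2 and 3.

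Promoter sequences bear on the sensors because interferon-responsive genes carry a known element. Its core, TTTC and again TTTC with any 2 bases between, was searched on both strands, from 250 bases before to 50 bases after each start in the RefSeq table of GRCm38.p6, in which 47 members have an entry. It was found in 3.99% of the 27025 genes in the table and in 3 members, Ddx49, Ddx58 and Ddx60. Dhx58 has no entry. The matches of the 2 sensors are shown in capitals, in the direction of transcription.

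Ddx58 (chr4:40239804-40239833, minus strand): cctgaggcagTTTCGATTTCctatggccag
Ddx60 (chr8:61928024-61928086, plus strand): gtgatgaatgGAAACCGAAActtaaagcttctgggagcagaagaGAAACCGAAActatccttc

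The match of Ddx58 starts 2 bases after the first transcribed base, and those of Ddx60 start 53 and 19 bases upstream of it. The E-box CACGTG, the site of Myc and related factors, was found in the promoters of 7 of the 47 members, against 8.09% of genes in the table. Of the 16 ribosome assembly helicases, only Dhx33 had a match in this window. A match describes the letters and shows no binding.

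The members known from mitochondria, the germline and DNA metabolism were mostly low. Dhx30, of mitochondrial RNA granules, was at 44.4, 57.4 and 44.7 CPM and Ddx28, of mitochondrial ribosome assembly, at 3.58, 4.62 and 7.23 CPM (110, 116 and 217 counts). Ddx4, the vasa gene that marks germ cells, had 462, 229 and 229 counts, or 15.0, 9.12 and 7.63 CPM. Its level was highest in library 1. Ddx43 was low, at 1.17, 1.08 and 1.83 CPM (36, 27 and 55 counts). It overlaps an antisense gene over 15.9% of its exon length, so its count is uncertain. Ddx25 had 2, 7 and 7 counts, near the 3 counts that a count of 0 allows. The DNA helicase gene Ddx11, which acts in sister chromatid cohesion, was at 42.6 ± 2.20 CPM.

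To 5 members no role was assigned. Ddx26b (Ints6l) lay at 147, 123 and 122 CPM, highest in library 1, and Dhx57 at 93.4, 91.8 and 78.2 CPM. Dhx40 at 20.7 ± 0.252 CPM and Dhx32 at 19.2 ± 0.618 CPM were nearly equal in the 3 libraries. Ddx59, a gene linked to limb and face development, was at 10.3, 9.28 and 5.99 CPM and was the lowest of this set.

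Levels of different genes are best compared per length. In CPM per kb of exons Ddx5 led at 213 ± 17.4, followed by Ddx17 at 112 ± 6.71 and Ddx3x at 92.8 ± 19.9, and the libraries of Ddx17 and Ddx3x overlapped. Ddx39b at 58.0 ± 1.85 and Ddx6 at 55.9 ± 2.99 did not differ beyond their spread. Dhx9 came next at 47.3 ± 4.17, and Dhx15 at 40.2 ± 1.86 and Ddx21 at 38.0 ± 4.55 did not differ beyond their spread. Eif4a1 stood at 151 ± 13.0 on this scale, between Ddx5 and Ddx17. This order holds for the length of annotated exons. Exons of Ddx39b, Dhx15 and Ddx6 add up to 3.78, 8.50 and 8.04 kb, while their longest coding transcripts have 1.74, 3.01 and 6.03 kb. Per kilobase of those transcripts, Ddx39b and Dhx15 both lay above Ddx6 in every library. The order above, and the closeness of Ddx39b to Ddx6, therefore do not hold on that scale.

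Within each of 7 related pairs the same gene was higher in every library. In log2(CPM per kb + 0.5), Ddx39b lay above Ddx39 by 2.86, 2.05 and 2.19 in libraries 1, 2 and 3, with a mean of 2.37 (SD 0.43). Ddx21 lay above Ddx50 by 2.03, 2.17 and 2.19 (mean 2.13, SD 0.09), and Ddx5 above Ddx17 by 0.86, 0.83 and 1.10 (mean 0.93, SD 0.14). Ddx39b thus exceeded Ddx39 the most in library 1, where Ddx39 was low, while the differences of the other pairs varied less. Ddx58 lay above Dhx58 by 1.06, 1.00 and 1.20 (mean 1.09, SD 0.10), and both were highest in library 1.

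Ddx19a lay above Ddx19b by a mean of 1.85 (SD 0.13), but 28.1% and 12.4% of their 50-base stretches are shared with each other, so the ratio is uncertain. Dhx9 lay above Dhx30 by 3.23 (SD 0.23), and Dhx29 below Dhx57 (mean -0.95, SD 0.25). Each of the 7 differences had the same sign in 3 of 3 libraries. The exact two-sided sign-flip permutation test gave p = 0.25 for each pair. No smaller p can be reached with 3 libraries, and adjustment over the 7 pairs (Benjamini-Hochberg) left it at 0.25. The size of these differences depended on the length used, to different degrees. On plain CPM and per kilobase of the longest coding transcript, Ddx21 and Ddx50 differed by 1.22 and 0.33 in place of 2.13. Annotated exons of Ddx50 add up to 10.1 kb, while its longest coding transcript has 2.54 kb. Ddx19a and Ddx19b differed by 0.74 and 1.00 on those scales in place of 1.85. Ddx58 and Dhx58 differed by 2.22 and 1.52 in place of 1.09. Ddx39b and Ddx39 differed by 1.96 and 1.89 in place of 2.37, and Ddx5 and Ddx17 by 0.53 and 0.94 in place of 0.93. For Dhx9 and Dhx30 the values were 3.21 and 2.90 in place of 3.23. Dhx29 minus Dhx57 moved little from -0.95, to -0.995 and -0.95.

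**Figure D3:**
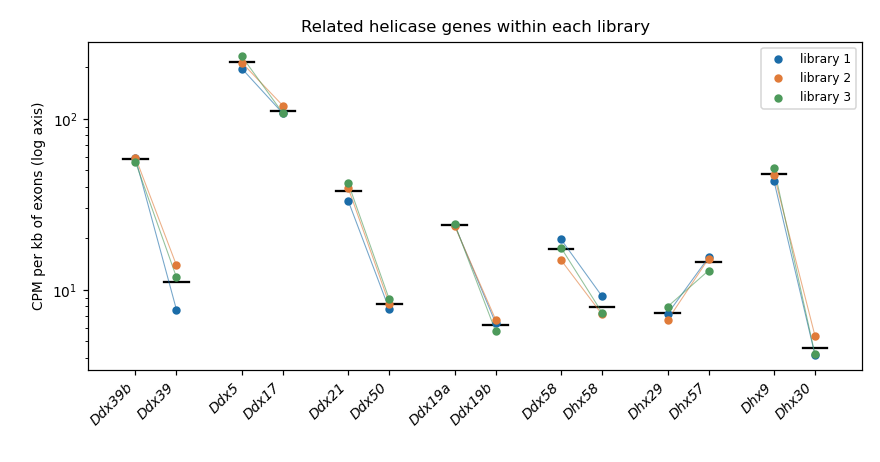
CPM per kb of annotated exons (log axis) of 7 pairs of related helicase genes; points are libraries, joined within a pair, and black bars are means. Ddx39b lies above Ddx39 in each library, by 2.86, 2.05 and 2.19 in log2(CPM per kb + 0.5), and Dhx29 lies below Dhx57.

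Differences between the libraries mostly exceeded read-counting noise, as they did for genes in general. The chi-square test on the counts, with Benjamini-Hochberg adjustment over 12965 genes, called 43 of 52 members, against 82.6% of all genes tested, so the members were not set apart. By pairs of libraries it called 34, 37 and 31 members for libraries 1 and 2, 1 and 3, and 2 and 3, against 64.4%, 67.3% and 51.4% of genes. Few members differed by more than 1.5-fold after 0.5 was added to each CPM, namely 3 between libraries 1 and 2, 5 between libraries 1 and 3 and 3 between libraries 2 and 3, where the shares of all genes were 15.8%, 16.9% and 9.29%. The median log2 range was 0.29 for the members and 0.36 for all genes at 1 CPM or more, of which many are less abundant. It was 0.17 for the splicing and 0.34 for the ribosome assembly helicases.

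The widest ranges among members with at least 5 CPM were those of Ddx4 (0.94), Ddx28 (0.92), Ddx39 (0.85), Ddx59 (0.74), Ddx3x (0.63) and Ddx10 (0.62). In edgeR's quasi-likelihood fit, which compares a gene's variability with that of similarly abundant genes, 0 of the 52 members passed after Benjamini-Hochberg adjustment (smallest adjusted p = 0.983), where 0.00771% of all genes passed. At an unadjusted p under 0.05 there were 3 members, Ddx39, Ddx3x and Ddx10, against 4.57% of genes. The DESeq2 dispersions gave 0 members after adjustment, against 0.424% of genes, and the same 3 members without it. All 3 were lowest in library 1, and without library 1 none of them had an unadjusted p under 0.05 in edgeR, where Dhx34 was the 1 member that did. Without library 2, Ddx3x alone did, and without library 3 the 3 genes and Ddx58 did.

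**Figure D4:**
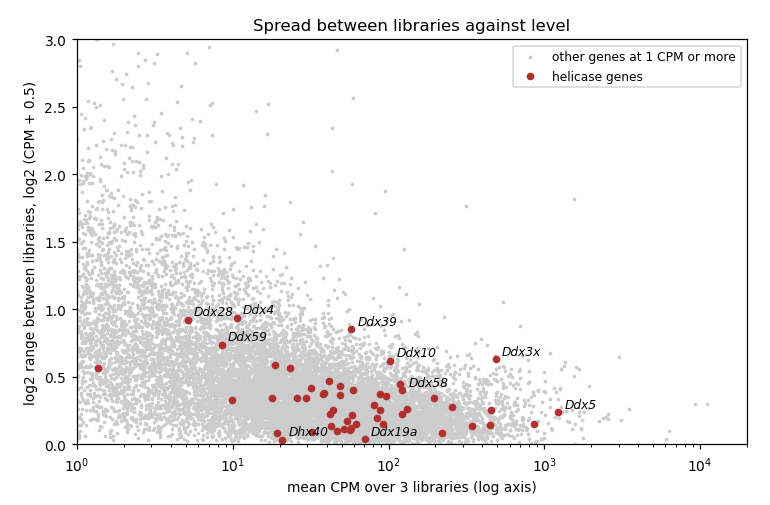
Range between libraries in log2 (CPM + 0.5) against the mean CPM (log axis) for helicase genes (red) and the other genes at 1 CPM or more (grey; 6 genes above a range of 3 and 1 gene beyond the right end are outside the axes). Ddx3x, Ddx10 and Ddx39 lie at the upper side of genes of their level, with ranges of 0.63, 0.62 and 0.85, and Ddx19a and Dhx40 lie near 0.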

How the data were processed

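RNA of 3 control HSPC libraries was amplified from 10 ng (NuGEN Ovation, poly(A) and random priming) and sequenced, per the labels' protocols. Raw counts for each gene symbol, not normalized, are what the authors deposited. TopHat2 2.0.9, HTSeq, DESeq2 and mm10 are named in the submitters' processing notes. Gene model and strand setting of the counting were not given in the sources used here. Amplified reads are not independent molecules, so counting intervals and the chi-square test cover read counting only.

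The 92 spike-in rows and 5 category rows stayed out of library sizes. Entries that name no gene made up 61.8%, 65.9% and 60.0% of all counts in libraries 1, 2 and 3. CPM were taken on gene-row totals. Genes averaging 1 CPM or more entered a chi-square test between libraries and the F test of edgeR's quasi-dispersion over its trend (intercept only, robust, TMM), at adjusted p under 0.05. Both were tested on simulated data. Logs have a pseudocount of 0.5. The floor of a count of 0 was set at 3 counts. Alternatives were other scalings, filters, pseudocounts, lengths, DESeq2 dispersions, and each library left out in turn.

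Lengths, coordinates and shared 50-base stretches come from GENCODE M21 (GRCm38, the assembly of mm10), matched by 98.5% of symbols. A box was sought from 45 to 175 codons, then to 400 codons, after the codons of the phosphate-binding loop. Named were up to 5 highest and 2 lowest members of a role, related pairs, the 6 widest ranges and, of other lists, up to 3 highest and the lowest gene. Further members were named to account for all, and 1 gene that this rule names is not reported here. Members, roles and lists were chosen with earlier results of these data known. Software was R 4.3.3, edgeR 4.0.16, DESeq2 1.42.0, Python 3.11.15, SciPy 1.17.1 and pandas 2.3.3.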

Additional observations from a re-analysis of the deposited data

Results flagged for a closer look

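The ERCC spike-in rows lie outside the measurements above. They held 14.8, 9.54 and 5.82 counts per 1000 gene counts in libraries 1, 2 and 3, above what a count of 0 allows. The amount of spike-in added per cell or per RNA is not given in the sources used here. Scaled to the spike-in totals, a choice made after seeing the data, the median helicase lay 1.08 below the other libraries in library 1 (-1.08 in log2) and 1.08 above them in library 3, while the median gene at 1 CPM or more lay at -1.01 and 1.01.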

How the results depend on the processing

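No paired analysis was possible because all 3 libraries belong to 1 group. The share of helicases in gene counts moved from 0.679% to 0.748% when Rn45s was left out of the totals. The median of each role over the median gene, in log2, depended on length. On CPM it was 1.07 for splicing, 1.16 for ribosome assembly, 0.05 for mitochondrial RNA, 1.14 for RNA sensing, 1.32 for export, translation and decay, 4.66 for transcription and RNA processing, -4.29 for the germline, 0.72 for the DNA helicase and -0.32 without a role. Per kilobase of exons these became 0.93, 0.52, -0.91, 0.29, 0.64, 3.63, -3.42, 0.0029 and -0.39. The length of the longest coding transcript was a choice made after seeing the data. Per kilobase of it, the first 6 roles had 0.62, 0.82, -0.51, 0.0068, 1.00 and 3.70. The germline had -4.16, near its value on CPM, the DNA helicase -0.056 and the members without a role -0.56. The direction of each of the 7 pairs held under every alternative run. The count of members called by chi-square stayed within 1.5 times, and that of all genes ran from 6660 (without library 1) to 8709 when a library was left out, against 10707. The edgeR variability test called 0 members in every setting run. Over all genes it called 1, and 16 without a filter, and 1 to 16 when a library was left out (16 without library 1). The separate test on DESeq2 dispersions called 55 genes. With 3 libraries and amplified reads, differences near the spread between libraries could not be resolved.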
